A study of Xenopus laevis with 6 samples.

Results

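The genes of fibroblast growth factor (FGF) signalling were measured along the hind limb bud of the African clawed frog, Xenopus laevis, in wild type tadpoles of stage 51. The set held 33 gene copies: 14 ligand copies, 7 receptor copies, 10 copies of feedback inhibitors and 2 copies of ETS transcription factor genes. Copies were chosen by name (fgf, fgfr, spry and spred genes, dusp6, etv1, etv4 and etv5) from the authors' deposited table of differentially expressed genes, which names 6943 of the 51061 gene IDs counted. X. laevis is an allotetraploid, and the endings L and S mark the copies of a gene on its separate subgenomes. The 33 copies belong to 20 gene symbols, 13 with both copies named and 7 with 1 copy.

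That table lists a gene only if the authors had called it (adjusted p under 0.05) in at least 1 comparison of these libraries. The members therefore had to differ somewhere, and the number called below is not independent evidence that FGF genes differ along the limb. Copies of FGF genes outside that table were not analysed here. All 33 members passed the filter on low counts, and each was called when the 3 segments were tested jointly (edgeR quasi-likelihood test, Benjamini-Hochberg adjusted p under 0.05), as were 30.3% of all 27007 genes tested and 95.4% of the 6912 named genes tested.

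Each bud was cut into a distal, a medial and a proximal segment, and every library came from a pool of 30 hind limbs with no treatment. There were 2 biological replicate pools per segment, numbered 1 and 2 and also named Black and Red in the labels, and 1 ug of total RNA entered each of the 6 libraries. Levels are fragments per 1e6 assigned to genes after scaling (CPM), over 10815041 (proximal pool 1) to 35479915 (proximal pool 2) assigned fragments. A level of 3 counts, used as the detection floor, was 0.0840 to 0.283 CPM, and covers counting error only. The 9 copies of the distal limb list (lhx9, hoxa13, hoxd13 and others) summed to 1198 to 1210 CPM in distal, 385 to 420 in medial and 263 to 327 in proximal pools. The sum is weighted by abundant copies such as lhx9.L, at 390.5, 213.9 and 134.2 mean CPM in distal, medial and proximal pools. In the same order hoxa13.L averaged 206, 8.54 and 12.5 CPM, hoxd13.L 128, 11.2 and 2.90 CPM, and msx1.S 32.55, 11.5 and 28.6 CPM. msx1.S was not called between distal and proximal (edgeR adjusted p = 0.224). The hind limb gene pitx1.L stood at 199, 348 and 306 mean CPM in distal, medial and proximal pools. All marker lists, here and below, hold only genes named in the authors' table, and other symbols of a list were left out. Of the named genes tested, 39.3% were called higher and 49% lower in distal than in proximal. Counts of marker copies are to be read beside that. Blood genes, 27 copies, all fell in distal against both other segments, with sums of 1308 to 2616 CPM in distal, 58020 to 67330 in medial and 31690 to 43500 in proximal pools.

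FGF ligands are secreted proteins that bind receptor tyrosine kinases on neighbouring cells together with heparan sulfate, and the receptors signal through Ras and the kinase ERK. ERK activity in turn switches on ETS factors and inhibitors of the same pathway, such as sprouty proteins and the ERK phosphatase Dusp6, whose transcripts are widely used as readouts of FGF signalling. In vertebrate limb buds, FGFs from a strip of ectoderm at the tip, the apical ectodermal ridge, sustain outgrowth, and Fgf10 from the mesenchyme beneath acts back on the ectoderm.

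Between distal and proximal, 31 of the 33 members were called, 19 higher and 12 lower in distal. Of all genes tested 29.5% were called in this comparison, and 88.3% of the genes the authors' table names, so that the count itself is close to its background. By direction, 13.6% of all genes were higher and 15.9% lower in distal, and 39.3% and 49% of named genes. Directions differed by role. All 10 copies of feedback inhibitors and both ETS copies were higher in distal, 6 of 7 receptor copies were lower and the seventh was not called, and the ligands split into 7 higher, 6 lower and 1 not called. The median log2 fold change was 0.90 over the members, −0.003 over all genes tested and −0.36 over named genes. By role it was 2.18 for feedback inhibitors, 1.11 for ETS genes, 0.15 for ligands and −1.69 for receptors.

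Both fgf8 copies and fgf9.S had the largest rises in distal among the members. fgf8.L (gene937, chromosome 7L, 25374272 to 25384967 in the deposited count table, with no build given) encodes the principal ridge FGF of amniote limbs. It stood at 27.7 and 32.2 CPM in distal pools 1 and 2, 4.81 and 2.90 CPM in medial pools and 1.80 and 1.34 CPM in proximal pools. The segments did not overlap, and fgf8.L was 20.2-fold higher in distal than in proximal (log2 4.34, SE 0.25, edgeR adjusted p = 8e-07) and also higher in distal than in medial (2.95, SE 0.21). fgf8.S (gene37277, chromosome 7S, 20480605 to 20492234) had 21.2 and 21.2 CPM in distal, 2.75 and 0.98 in medial and 1.04 and 0.64 CPM in proximal pools. Here medial and proximal pools overlapped, and distal exceeded proximal 28.1-fold (log2 4.81, SE 0.44, edgeR adjusted p = 1.94e-04). No difference between medial and proximal was called (1.31, edgeR adjusted p = 0.261), but it was without medial pool 2 (1.88, edgeR adjusted p = 3.49e-04). For 391 of its 2585 exon bases fgf8.S overlaps another annotated gene ID that itself held 1 count in all libraries together.

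fgf9.S, whose product belongs to another ridge-expressed family in amniotes, ran parallel to fgf8. Its levels were 13.6 and 16.3 CPM in distal, 2.27 and 1.02 in medial and 0.76 and 0.90 CPM in proximal pools, 17.3-fold higher in distal than in proximal (log2 4.11, SE 0.33, edgeR adjusted p = 9.38e-06). The step between medial and proximal was not called (0.93, edgeR adjusted p = 0.241). fgf16.S, of the same subfamily as fgf9, was less abundant and less steep, at 4.55 and 5.74 CPM in distal, 2.35 and 1.38 in medial and 1.51 and 0.67 CPM in proximal pools. Medial and proximal pools overlapped, and distal exceeded proximal by 2.47 (SE 0.38, edgeR adjusted p = 6.27e-04). Its distal to medial call (1.45, SE 0.32, edgeR adjusted p = 0.00781) was lost without distal pool 2 (edgeR adjusted p = 0.068).

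Surface ectoderm markers were also higher in distal, and are given beside the ridge-type ligands. Of the 26 ectoderm marker copies tested, 15 rose and 5 fell in distal against proximal, and their summed level was 1030 to 1057 CPM in distal, 502 to 750 in medial and 628 to 669 CPM in proximal pools. None of the 26 was at 0 in any segment. Among defining epithelial genes, epcam, cdh1, krt8 and krt18 are not named in the table and were not analysed here, while tp63.L and tp63.S were not called between distal and proximal (log2 fold changes 0.32 and 0.45, edgeR adjusted p = 0.461 and 0.176). The summed ectoderm level was 1.61 times higher in distal than in proximal. Per 1000 CPM of that sum, a scale chosen after the levels had been seen, fgf8.L stood at 28.7 ± 2.53 in distal, 6.09 ± 0.44 in medial and 2.41 ± 0.38 in proximal pools (SD, n = 2 each), 11.9 times higher in distal than in proximal. The same ratio was 15.7 for fgf8.S, 11.2 for fgf9.S and 2.96 for fgf16.S. In bulk tissue, fewer cells of a type and less RNA per cell cannot be told apart.

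**Figure D1:**
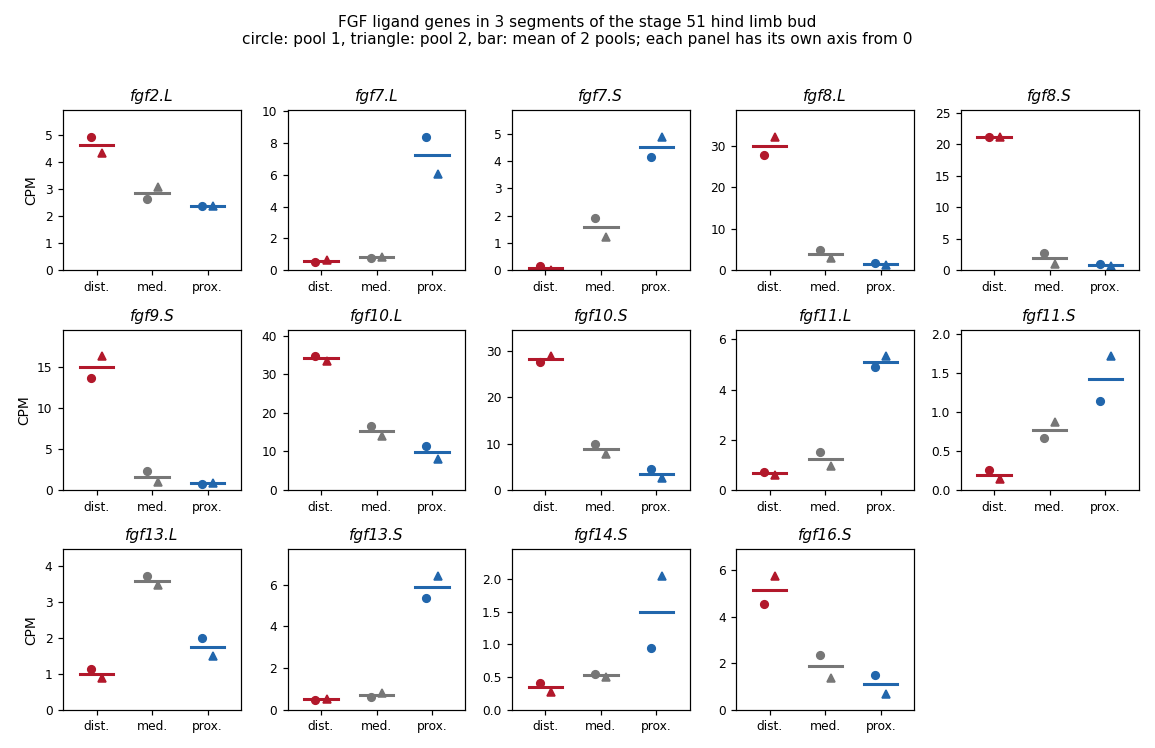
CPM of the 14 FGF ligand copies (y axes, each from 0) in distal, medial and proximal pools (x axes), with circles for pool 1, triangles for pool 2 and a bar for the mean of 2 pools. fgf8, fgf9, fgf10, fgf16 and fgf2 copies were highest in distal, where fgf8.L reached 27.7 and 32.2 CPM, and fgf7, fgf11, fgf13.S and fgf14.S copies were highest in proximal.

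fgf10, the mesenchymal partner of the ridge FGFs, was high in distal and declined in steps. fgf10.L had 34.6 and 33.6 CPM in distal, 16.5 and 14.0 in medial and 11.5 and 8.07 CPM in proximal pools. fgf10.S had 27.6 and 28.8 CPM in distal, 9.83 and 7.84 in medial and 4.53 and 2.49 CPM in proximal pools. No segment overlapped another in either copy. The S copy fell off more steeply, with distal above proximal by 3.17 (SE 0.23, edgeR adjusted p = 4.85e-06), against 1.87 for L (SE 0.16, edgeR adjusted p = 6.65e-06), and the balance of the copies differed among segments (limma adjusted p = 3.57e-04). The log2 excess of L over S was 0.27 ± 0.08 in distal, 0.79 ± 0.06 in medial and 1.50 ± 0.23 in proximal pools (SD, n = 2 each).

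fgf7, which with fgf10 forms the subfamily that signals to epithelia, ran the other way. fgf7.L had 0.54 and 0.68 CPM in distal, 0.77 and 0.83 in medial and 8.41 and 6.05 CPM in proximal pools. The step lay between medial and proximal (log2 −3.12, SE 0.26, edgeR adjusted p = 2.16e-05), and none was called between distal and medial (−0.43, SE 0.37, edgeR adjusted p = 0.444). fgf7.S had 0.17 and 0 CPM in distal, 1.91 and 1.23 in medial and 4.16 and 4.90 CPM in proximal pools, where the 0 in distal pool 2 allows up to 0.203 CPM. It was lower in distal than in medial (−3.87, SE 0.59, edgeR adjusted p = 6.45e-04) and lower in medial than in proximal (−1.55, SE 0.30, edgeR adjusted p = 0.00814). The medial to proximal call was lost without proximal pool 2 (edgeR adjusted p = 0.147). The distal level rests on 4 counts in all, so the fold to distal is poorly determined. On the scale of exon length, 3.74 ± 0.86 CPM per kilobase of fgf7.L in proximal pools lay near the 4.49 ± 1.12 of fgf10.L there (SD, n = 2 each), whereas in distal the levels were 0.32 ± 0.05 for fgf7.L and 15.6 ± 0.34 for fgf10.L.

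fgf2.L, which encodes a ligand that lacks a classical secretion signal, was low and mildly graded, at 4.92 and 4.32 CPM in distal, 2.64 and 3.09 in medial and 2.36 and 2.35 CPM in proximal pools. Distal exceeded proximal by 0.98 (SE 0.21, edgeR adjusted p = 0.00491), and the call was lost without distal pool 1 (0.0691) or without proximal pool 2 (0.0596, edgeR adjusted p in both). Of its 986 exon bases 499 overlap nudt6.L on the opposite strand, and strand was not used in counting, so the value of fgf2.L is uncertain.

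The remaining ligand-named genes, fgf11, fgf13 and fgf14, encode FGF homologous factors that stay inside the cell and are best known as partners of sodium channels in neurons. All 5 copies had their lowest mean level in distal, but not every step was called. Between distal and medial, fgf11.L, fgf13.S and fgf14.S were not called (edgeR adjusted p = 0.0903, 0.332 and 0.49). Between distal and proximal, fgf13.L was not called (−0.68, edgeR adjusted p = 0.112). fgf13.S had 0.46 and 0.54 CPM in distal, 0.62 and 0.80 in medial and 5.38 and 6.41 CPM in proximal pools (distal minus proximal −3.59, SE 0.29, edgeR adjusted p = 3.44e-06). fgf13.L peaked in medial instead, with 1.13 and 0.88 CPM in distal, 3.71 and 3.45 in medial and 1.98 and 1.48 CPM in proximal pools. It was lower in distal than in medial (−1.80, SE 0.27, edgeR adjusted p = 4.98e-04) and higher in medial than in proximal (1.12, SE 0.25, edgeR adjusted p = 0.0161). The last call was lost with DESeq2 (adjusted p = 0.123) and without proximal pool 2 (edgeR adjusted p = 0.25).

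fgf11.L had 0.71 and 0.61 CPM in distal, 1.50 and 0.94 in medial and 4.91 and 5.32 CPM in proximal pools (distal minus proximal −2.94, SE 0.30, edgeR adjusted p = 2.27e-05). fgf11.S and fgf14.S were rarer, with at most 1.71 and 2.04 CPM in any library, and were lower in distal than in proximal by log2 fold changes of −2.85 (SE 0.47) and −2.20 (SE 0.46, edgeR adjusted p = 8.4e-04 and 0.00375). The call for fgf14.S was lost without proximal pool 2 (−1.39, edgeR adjusted p = 0.177), whose 2.04 CPM stood against 0.94 in proximal pool 1. Nerve and glia markers moved the same way: all 12 copies fell in distal against proximal, and mpz.S was at 0 in distal. Sums were 66.5 to 72.7 CPM in distal, 165 to 168 in medial and 179 to 217 CPM in proximal pools. They are weighted by ngfr.L, at 30.9, 53.9 and 63.5 mean CPM in that order, while sox10.L averaged 0.20, 5.31 and 6.85 CPM. The isl1 copies of this list also stand on the list of ridge genes and their partners below. The part of these markers in the fgf11, fgf13 and fgf14 values was not tested.

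The receptor copies named ran against the ridge ligands, each with its lowest mean level in distal. No copy of fgfr1 was among them. fgfr2, the receptor through which Fgf10 signals to limb ectoderm and whose other isoform acts in mesenchyme, was the most abundant receptor named, with 23.4 ± 0.42, 34.3 ± 2.75 and 43.7 ± 3.21 CPM per kilobase of fgfr2.L in distal, medial and proximal pools (SD, n = 2 each). In CPM fgfr2.L had 107 and 104 in distal, 146 and 163 in medial and 186 and 207 in proximal pools. fgfr2.S had 49.7 and 47.5 CPM in distal, 99.2 and 107 in medial and 152 and 167 CPM in proximal pools. Both copies were lowest in distal and no segments overlapped. Distal differed from proximal by −0.90 in L (SE 0.10, edgeR adjusted p = 4.08e-05) and by −1.72 in S (SE 0.10, edgeR adjusted p = 2.24e-07), and the step between medial and proximal was called for S and not for L (edgeR adjusted p = 0.00135 and 0.0544). Counts per gene do not separate the epithelial and mesenchymal isoforms of fgfr2. Of 19 copies of limb mesenchyme markers, 13 fell and 3 rose in distal against proximal (median −0.77). Copies of prrx1, twist1 and col1a1 fell, and msx1.L (1.01), fbn2.S (0.67) and tcf12.L (0.435) rose. Sums were 7436 to 7558 CPM in distal, 9233 to 10990 in medial and 12650 to 13640 CPM in proximal pools. They are weighted by the col1a1 and col1a2 copies, such as col1a2.L at 2082, 2733 and 3598 mean CPM in distal, medial and proximal pools. Of 13 endothelial marker copies 12 fell and 1 rose, with sums of 285 to 318, 378 to 409 and 489 to 498 CPM in the same pools. No copy of either list was at 0 in any segment, and their part in the fgfr2 values was not tested.

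fgfr4 had the steepest receptor gradient. fgfr4.L was at 6.68 and 6.08 CPM in distal, 25.5 and 26.0 in medial and 41.7 and 42.7 CPM in proximal pools, 6.58-fold lower in distal than in proximal (log2 −2.72, SE 0.11, edgeR adjusted p = 1.82e-08). fgfr4.S was at 8.14 and 7.29 CPM in distal, 24.5 and 23.3 in medial and 27.6 and 28.9 CPM in proximal pools. For this copy nearly all of the difference lay between distal and medial (−1.62, SE 0.11, edgeR adjusted p = 1.74e-06), with −0.25 (SE 0.10, edgeR adjusted p = 0.217) between medial and proximal. In mouse and chick fgfr4 marks muscle progenitors. Of 21 muscle marker copies 17 fell and none rose in distal against proximal, but single copies did not all share the order of fgfr4. lbx1.L averaged 12.9, 18.4 and 16.1 CPM in distal, medial and proximal pools and was not called between distal and proximal (edgeR adjusted p = 0.124). mylpf.L was lowest in medial, at 0.18 and 0.15 CPM, against 4.59 and 0.41 in distal and 3.68 and 13.7 in proximal pools. The 21 copies summed to 31.1 to 50.1 CPM in distal, 69.8 to 73.9 in medial and 111 to 139 CPM in proximal pools, and pax7.L, both myog copies and both myl4 copies were at 0 in distal. Their part in the fgfr4 values was not tested.

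fgfr3.L, the receptor known from growth plate cartilage, had 22.7 and 22.6 CPM in distal, 25.13 and 25.15 in medial and 33.2 and 39.5 CPM in proximal pools. No difference between distal and medial was called (−0.15, SE 0.11, edgeR adjusted p = 0.329), and distal was lower than proximal (−0.70, SE 0.11, edgeR adjusted p = 4.71e-04). fgfrl1 encodes a receptor-like protein without a kinase domain. fgfrl1.S was lower in distal, at 10.6 and 9.93 CPM, than in medial, at 25.5 and 34.0, and proximal pools, at 32.3 and 34.3 CPM (distal minus proximal −1.69, SE 0.14, edgeR adjusted p = 6.38e-06), where medial and proximal pools overlapped. fgfrl1.L peaked in medial, at 42.6 and 58.5 CPM, against 28.2 and 26.2 in distal and 31.6 and 36.3 CPM in proximal pools. The excess of medial over proximal (0.56, SE 0.14, edgeR adjusted p = 0.0447) lay close to the threshold and was lost in 9 other settings. The distal to proximal difference of fgfrl1.L (−0.33, SE 0.15) was not called (edgeR adjusted p = 0.131), but was in 4 other settings, such as without medial pool 1 (edgeR adjusted p = 0.0209) or medial pool 2 (0.0213). Cartilage markers fell in distal in 19 of 21 copies and none rose, with sums of 1392 to 1402, 2095 to 2289 and 2718 to 3160 CPM in distal, medial and proximal pools, and none was at 0 in any segment. Their part in the fgfr3 and fgfrl1 values was not tested.

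**Figure D2:**
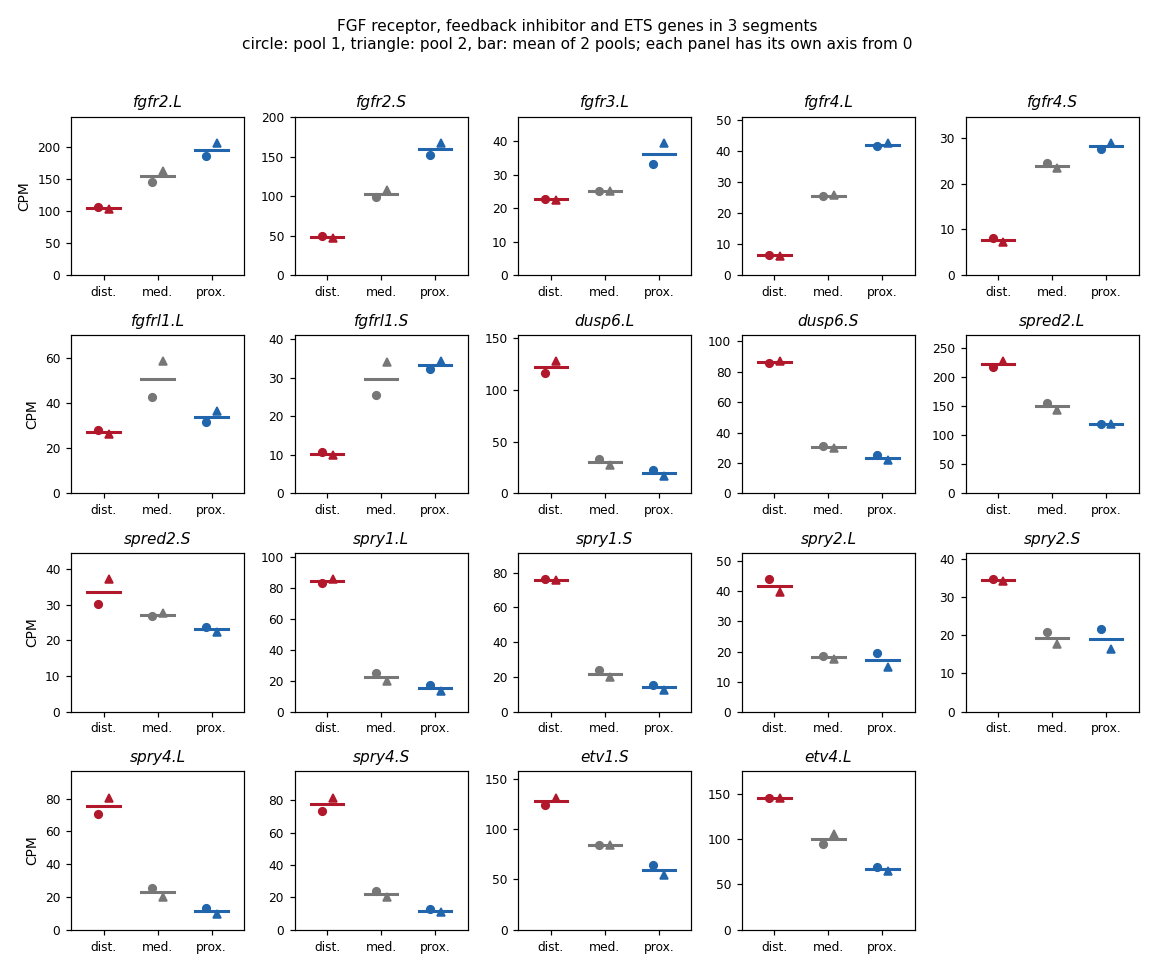
CPM of the 7 receptor, 10 feedback inhibitor and 2 ETS gene copies (y axes, each from 0) in distal, medial and proximal pools (x axes), with circles for pool 1, triangles for pool 2 and a bar for the mean of 2 pools. Receptors were lowest in distal (fgfr4.L at 6.68 and 6.08 CPM there) and the inhibitors and ETS genes highest (dusp6.L at 116 and 127 CPM).

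The feedback inhibitors were all highest in distal, and in none of the 10 did distal pools overlap medial or proximal ones. Non-overlap by itself was common: between distal and proximal it held for 66.2% of all genes tested and 97.7% of named genes, and between distal and medial for 65.2% and 93.7%. dusp6, which encodes a phosphatase that inactivates ERK, had 116 and 127 CPM for the L copy in distal, 33.5 and 27.4 in medial and 22.4 and 16.8 CPM in proximal pools, 6.37-fold higher in distal than in proximal (log2 2.67, SE 0.15, edgeR adjusted p = 5.97e-07). dusp6.S had 85.7 and 86.9 CPM in distal, 31.4 and 30.0 in medial and 25.0 and 22.0 CPM in proximal pools (distal minus proximal 1.89, SE 0.10, edgeR adjusted p = 1.28e-07).

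The sprouty genes encode inhibitors of the route from receptor to Ras and ERK, and they differed among themselves. spry4 had the widest range of the 3 sprouty genes named. spry4.L stood at 70.7 and 80.7 CPM in distal, 25.3 and 20.3 in medial and 13.0 and 9.66 CPM in proximal pools, and spry4.S at 73.1 and 81.6, 23.7 and 20.2, and 12.6 and 10.7 CPM in the same pools. Both copies were called at each boundary, and distal exceeded proximal by 2.79 in L (SE 0.16, edgeR adjusted p = 9.53e-07) and by 2.76 in S (SE 0.13, edgeR adjusted p = 4.45e-08). spry1.L stood at 83.4 and 85.4 CPM in distal, 25.0 and 20.1 in medial and 17.5 and 13.6 CPM in proximal pools, and spry1.S at 76.1 and 75.9, 23.8 and 19.7, and 15.4 and 12.4 CPM. Distal exceeded proximal by 2.48 in each (SE 0.14 and 0.13, edgeR adjusted p = 3.17e-07 and 1.22e-07).

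spry2 was flatter, with a call between distal and medial and none between medial and proximal. spry2.L had 44.0 and 39.9 CPM in distal, 18.4 and 17.7 in medial and 19.4 and 14.7 CPM in proximal pools. spry2.S had 34.7 and 34.2 CPM in distal, 20.9 and 17.8 in medial and 21.5 and 16.3 CPM in proximal pools. Medial and proximal pools overlapped in both copies (log2 fold changes 0.12 and 0.06, edgeR adjusted p = 0.759 and 0.901), and the sign of these small differences changed when single pools were left out. Distal exceeded proximal by 1.34 in L and 0.90 in S (SE 0.13 and 0.14, edgeR adjusted p = 1.43e-05 and 4.69e-04). Distal exceeded medial by 1.22 (SE 0.12, edgeR adjusted p = 3.03e-05) in L and 0.83 (SE 0.13, edgeR adjusted p = 8.4e-04) in S.

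spred2, a Sprouty-related inhibitor of Raf activation, had a more abundant L copy, whose counted exons are also longer (10603 bases, against 5598 for S). Per kilobase, L and S averaged 21.0 and 6.01 CPM in distal and 11.2 and 4.12 CPM in proximal pools. spred2.L had 218 and 227 CPM in distal, 156 and 144 in medial and 119 and 119 CPM in proximal pools (distal minus proximal 0.90, SE 0.09, edgeR adjusted p = 2.11e-05). spred2.S had 30.2 and 37.2 CPM in distal, 26.8 and 27.7 in medial and 23.9 and 22.2 CPM in proximal pools. Its rise of 0.55 (SE 0.12, edgeR adjusted p = 0.00405) was not called without distal pool 2 (edgeR adjusted p = 0.0601) or without proximal pool 2 (edgeR adjusted p = 0.0519).

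The ETS genes etv1 and etv4 encode transcription factors induced by FGF signalling in limb mesenchyme. etv4.L had 146 and 145 CPM in distal, 95.0 and 105 in medial and 69.7 and 64.3 CPM in proximal pools. etv1.S had 124 and 131 CPM in distal, 84.3 and 84.7 in medial and 64.7 and 54.8 CPM in proximal pools. Both were called at each boundary, by 0.54 (SE 0.09) for etv4.L and 0.60 (SE 0.10) for etv1.S between distal and medial and 0.58 (SE 0.09) and 0.51 (SE 0.10) between medial and proximal on the log2 scale. Between distal and proximal the log2 fold changes were 1.12 and 1.10 (edgeR adjusted p = 5e-06 and 9.45e-06). They stood beside 1.89 to 2.79 for the copies of dusp6, spry1 and spry4 and 0.55 to 1.34 for those of spry2 and spred2. This contrast between genes was not tested.

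**Figure D3:**
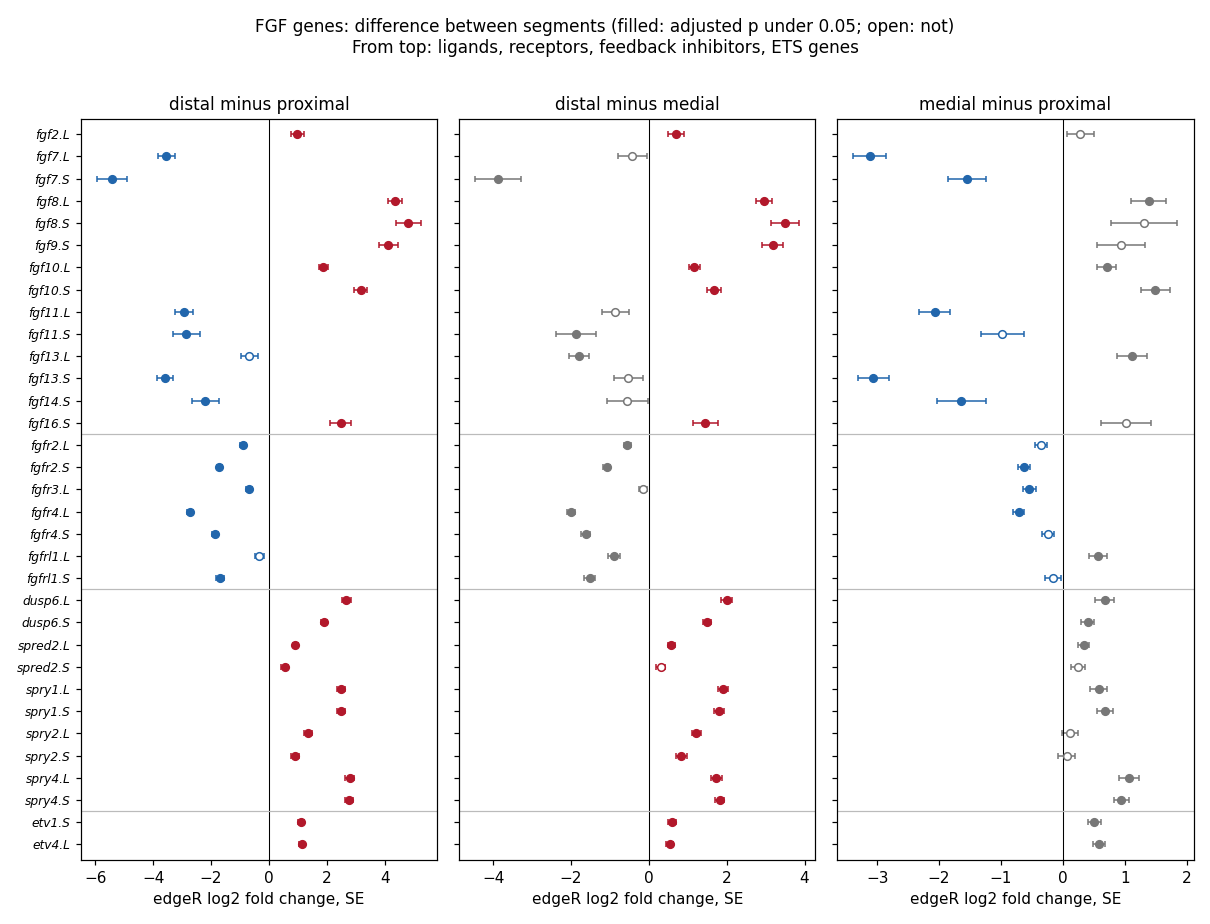
edgeR log2 fold change (x axes) of each of the 33 copies (rows, grouped from the top into ligands, receptors, feedback inhibitors and ETS genes) for 3 comparisons, with bars of 1 SE. Filled points had an adjusted p under 0.05 and open points did not. Red, grey and blue mark the segment that was higher (distal, medial and proximal). All 10 inhibitors lay right of 0 between distal and proximal (0.55 to 2.79) and all 7 receptors left of it (−2.72 to −0.33).

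Between distal and medial 27 members were called, 18 higher and 9 lower, where 25% of all genes tested (12.1% higher, 12.9% lower) and 76.8% of named genes (35.6% and 41.1%) were called. Between medial and proximal 22 were called, 14 higher and 8 lower in medial, where 7.6% of all genes tested (2.73% higher, 4.88% lower) and 26.6% of named genes (9.82% and 16.7%) were called. In 28 members the medial and proximal pools did not overlap, as in 43.6% of all genes and 66.3% of named genes. Without proximal pool 2, the most deeply sequenced library, proximal rested on pool 1 alone, the least deeply sequenced one. Fewer genes were then called between medial and proximal among all genes tested as well as among members. fgf8.L was among the members no longer called (log2 fold change 1.39, SE 0.28, edgeR adjusted p = 0.0132 with all libraries, and log2 fold change 1.11 without that pool). The others were fgf7.S, fgf10.L, fgf13.L, fgf14.S, fgfr3.L, fgfrl1.L, both copies of dusp6 and spry1, spred2.L and etv1.S. Between medial and proximal, spred2.L was lost without any 1 library other than medial pool 2, spry1.L and dusp6.S without either distal pool or medial pool 1, fgf10.L without distal pool 1, fgf14.S without medial pool 2 and fgfrl1.L without any 1 library other than medial pool 1, while fgf8.S, fgf9.S, fgf16.S and fgfr2.L were called without medial pool 2. Between distal and medial, fgf2.L was lost without distal pool 1, distal pool 2 or medial pool 1, fgf11.S without distal pool 1, distal pool 2 or medial pool 2, and fgf11.L was called without medial pool 2. The mean level declined from distal through medial to proximal in 19 members and ran the opposite way in 12, and fgf13.L and fgfrl1.L peaked in medial.

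Both copies of 11 of the 13 pairs were called between distal and proximal, and all 11 had the same direction. Over all 1192 pairs with both copies named, 82.6% had both called in this comparison, and 91% of those had the same direction. Both were called in 9 FGF pairs between distal and medial, all in the same direction (66.6% and 91.8% over all pairs), and in 6 between medial and proximal, where 5 had the same direction and fgf13 had opposite ones (20.7% and 93.9% over all pairs). The balance of copies differed among segments for 9 of the 13 pairs in a limma test on log2 CPM of L minus S over 1192 named pairs, of which 54.6% were called. For fgf13 the difference was 0.89 ± 0.38 in distal, 2.21 ± 0.30 in medial and −1.73 ± 0.46 in proximal pools (SD, n = 2 each, limma adjusted p = 4.72e-05). Per exon length, L gave 68.8% and 59.3% of the summed fgf13 level in distal, 84.2% and 79.5% in medial and 24.8% and 17.2% in proximal pools.

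Among receptors, the S copies of fgfr2 and fgfrl1 and the L copy of fgfr4 had the steeper gradients. The fgfr2 balance was 1.12 ± 0.02 in distal, 0.58 ± 0.04 in medial and 0.30 ± 0.005 in proximal pools (limma adjusted p = 6.75e-06), and that of fgfrl1 was 1.40 ± 0.003, 0.76 ± 0.03 and 0.03 ± 0.08 (limma adjusted p = 7.24e-06). That of fgfr4 ran the other way, at −0.27 ± 0.02, 0.11 ± 0.07 and 0.58 ± 0.02 (limma adjusted p = 6.02e-04). dusp6 shifted toward L in distal (0.50 ± 0.08, against −0.02 ± 0.16 in medial and −0.28 ± 0.16 in proximal pools). fgf7 also passed the test (limma adjusted p = 0.00383), with a distal value that rests on the 4 counts of fgf7.S. spred2 and spry2 passed with limma adjusted p of 0.0239 and 0.0183. Both calls were lost without distal pool 1, and that of spred2 also without proximal pool 1.

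For fgf8 no difference in balance was called (limma adjusted p = 0.184), with values of 0.39 and 0.60 in distal, 0.79 and 1.49 in medial and 0.74 and 0.97 in proximal pools. The copies of spry1 and spry4 stayed close to each other in every library, with L minus S between 0.03 and 0.18 for spry1 and between −0.15 and 0.10 for spry4 (limma adjusted p = 0.58 and 0.721). fgf11 was not called either (limma adjusted p = 0.106).

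**Figure D4:**
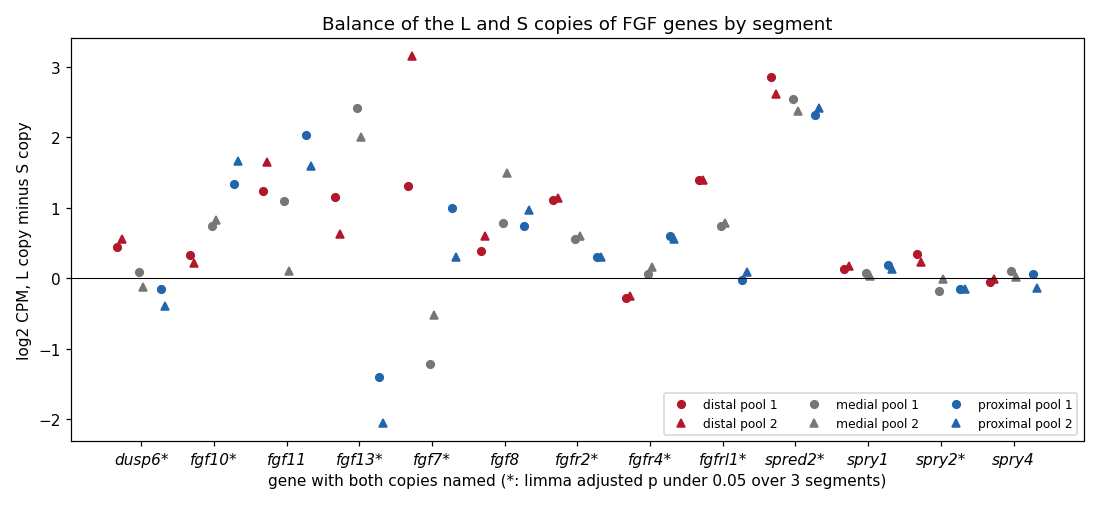
log2 CPM of the L copy minus that of the S copy (y axis) for the 13 FGF genes with both copies named (x axis), in distal (red), medial (grey) and proximal (blue) pools, with circles for pool 1 and triangles for pool 2. The segments separate for fgfr2, fgfr4 and fgfrl1, and fgf13 lies above 0 in distal and medial and below it in proximal pools (−1.40 and −2.05).

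Other genes of the pathway were read from lists drawn up by function, which cover only genes named in the authors' table. Over all named genes, 39.3% were higher and 49% lower in distal than in proximal, with a median log2 fold change of −0.36, and the lists are to be read beside that. Of 43 symbols for other ERK feedback genes, phosphatases and nuclear effectors, 22 were named, as 35 copies, and 19 of these rose and 10 fell in distal against proximal (median log2 fold change 0.45). il17rd, which encodes the membrane inhibitor Sef, and the S copy of flrt3, a gene co-expressed with FGFs in Xenopus embryos, led the rises. il17rd.L averaged 113 ± 9.81 CPM in distal, 44.3 ± 1.16 in medial and 21.5 ± 0.84 CPM in proximal pools (SD, n = 2 each, distal minus proximal 2.40 on the log2 scale, SE 0.10, edgeR adjusted p = 2.69e-08). il17rd.S rose by 1.77 (SE 0.12) and flrt3.S by 2.30 (SE 0.12) on the same scale. flrt3.L rose by 0.95 (SE 0.10), with means of 121 CPM in distal, 53.1 in medial and 62.9 CPM in proximal pools. Among copies with at least 1 CPM in the higher segment, the largest falls were dusp8.L (−3.10, SE 0.54), jun.S (−2.06, SE 0.15) and dusp8.S (−1.58, SE 0.35). Of these, dusp8 encodes a phosphatase of stress kinases and jun a subunit of AP-1. Below that level, flrt1.L fell more (−3.95, SE 0.74), with means of 0.04 CPM in distal, 0.64 in medial and 0.79 CPM in proximal pools. Both dusp8 copies were rare, at 1.42 and 1.90 mean CPM in proximal pools.

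Genes for extracellular cofactors and heparan sulfate mostly fell: 22 of 44 symbols were named, as 34 copies, and 26 fell and 4 rose in distal against proximal (median −0.86). klb.L, for the co-receptor β-Klotho of endocrine FGFs, held 3 counts in the distal pools together, against 7.07 ± 0.98 CPM in medial and 4.14 ± 1.98 CPM in proximal pools. From counts added over the 2 pools of each segment, its proximal to distal ratio was 63.4, with an exact 95% interval of 21.4 to 310. That interval covers counting error only. The ratio is weighted by the deeper proximal pool 2, at 5.54 CPM, against 2.74 CPM in proximal pool 1. ndst4.L (heparan sulfate N-sulfation) and fgfbp2.L (an FGF carrier) had log2 fold changes of −3.35 (SE 0.46) and −3.07 (SE 0.33). The largest rise was sulf2.L, for an enzyme that trims 6-O-sulfates from heparan sulfate, at 101 ± 3.42 CPM in distal and 40.4 ± 1.71 CPM in proximal pools (1.32 on the log2 scale, SE 0.09, edgeR adjusted p = 1.1e-06), followed by glce.L (0.69, SE 0.13) and hs6st1.S (0.53, SE 0.14). sulf2.S fell instead (−1.50, edgeR adjusted p = 0.00289).

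The intracellular relay was barely covered, with 5 of 38 symbols named, as 6 copies. rras2.S (0.53, SE 0.11) and plcg1.L (0.33, SE 0.09) rose and pik3r1.S (−1.23, SE 0.10), pik3r1.L (−0.85, SE 0.09) and rap1a.L (−0.33, SE 0.09) fell in distal against proximal. Of the list of ridge ectoderm genes and their mesenchymal partners, 29 of 38 symbols were named, as 49 copies, 30 of which rose and 13 fell (median 0.82). lhx2.L, a mesenchymal gene that depends on FGF in amniote limbs, averaged 156 ± 1.33 CPM in distal and 17.9 ± 5.28 CPM in proximal pools (log2 fold change 3.17, SE 0.17), and sp6.S, a ridge transcription factor gene, 10.4 ± 0.009 and 2.08 ± 0.93 CPM (2.50, SE 0.31). Of the other sp copies named, sp6.L (1.26, SE 0.32), sp8.L (1.06, SE 0.15) and sp8.S (1.503, SE 0.22) also rose in distal against proximal. sp9.L fell instead (−1.216, SE 0.21, edgeR adjusted p = 0.00106). Its means were 2.998 CPM in distal, 11.68 in medial and 7.171 CPM in proximal pools. shh.L, which takes part in a loop with ridge FGFs, rose by 3.52 (SE 0.51, edgeR adjusted p = 0.00883). wnt7a.S, of dorsal ectoderm, had no count in distal and was at least 9.85-fold lower there than in proximal, against a floor of 3 counts per library. The name isl1.S belongs to 2 gene IDs, which both fell (−2.52 and −2.51).

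Among the 5 named genes whose profile over the 6 libraries lay closest to fgf8.L were kif26a.S, vwde.L, LOC108706535 and eef1a1o.S. Likeness was the root mean square difference of log2 CPM after centring each gene, which was 0.11 for kif26a.S, a kinesin-family gene, and 0.18 for vwde.L, a gene for a secreted protein, and 0.34 for fgf8.S. kif26a.S averaged 79.7 ± 1.34 CPM in distal, 9.36 ± 3.84 in medial and 4.13 ± 0.70 CPM in proximal pools (SD, n = 2 each). vwde.L averaged 131 ± 22.9, 22.2 ± 10.4 and 8.09 ± 2.33 CPM in the same pools. Closest to fgf8.S were kif26a.S (0.27), bhlhe23.L (0.30), atp13a-like.S (0.30), LOC108702876 (0.33) and XB5842389.S (0.34). These genes were picked for their likeness over the same libraries, and no test goes with them.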

How the data were processed

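RNA from 6 pools was sequenced after Illumina TruSeq library preparation, per the labels' protocols. The submitters' processing notes name Trimmomatic 0.39, HISAT2 2.2.1, SAMtools 1.10, featureCounts 2.0.1 and DESeq2 1.30.1. Per the file headers the authors counted fragments per gene with featureCounts in paired-end mode and otherwise default settings, so strand was not used, and fragments mapping to several places or overlapping several genes were left out (multi-mapping fragments were 5.51% to 7.05% of a library). Near-identical copies can lose fragments in this way. These deposited counts are raw, and the genome build is not given in the sources used here. The authors' deposited table of calls holds, for each gene and contrast, a log2 fold change, a Wald score (not used here) and p-values, and lists entries with an adjusted p-value under 0.05. It is the source of all gene names.

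The filter was filterByExpr with a minimum count of 10 and a minimum total of 15 (27007 of 51061 gene IDs remained). TMM scaling followed, and counts were fitted over all 6 libraries with segment as the only factor (R 4.3.3, edgeR 4.0.16, robust quasi-likelihood, 3 residual degrees of freedom). P-values were adjusted over all genes tested by the Benjamini-Hochberg method. SE is the absolute log2 fold change over the square root of F. Fold changes are outer over inner segment. Copy balance was tested with limma 3.58.1 (trend, robust) on log2 CPM with a prior count of 2. Scripts were tested on simulated data. Members, lists and rules for naming genes were chosen with earlier results of these data known. List genes named are the 3 largest called rises and falls between distal and proximal with at least 1 CPM in the higher segment. sulf2.S, flrt3.L and the other sp copies are given beside them. Alternatives were RLE factors, library totals alone, no filter, a floor of 10 counts in each library, the replicate block, DESeq2 1.42.0, limma-voom, only the 4 libraries compared, a prior count of 0.5, and leaving out each library. With 2 pools per segment the precision rests on a spread shared over genes. A marker list and 1 gene with a profile like that of fgf8.L are not reported here.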

Additional observations from a re-analysis of the deposited data

How the results depend on the processing

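Of the log2 fold changes of members recomputed under each alternative, 1290 kept their direction and their side of the threshold, 57 kept the direction and lost the call, 17 gained one and 4 changed sign. The sign changes concerned uncalled differences between medial and proximal when 1 pool was left out: fgfrl1.S (−0.39 to 0.026 on the log2 scale), spry2.S (−0.14 to 0.24) and spry2.L (−0.09 to 0.29). The number of members called between medial and proximal was 9 to 24 with 1 library left out (9 without proximal pool 2), against 22 with all; between distal and proximal it was 28 to 32 and between distal and medial 24 to 27. The share of all genes tested that was called also shifted when 1 library was left out, and without proximal pool 2 it fell in each comparison. The counts of members are to be read beside that. With RLE factors no call of a member changed. Library totals alone put the median of all genes at 0.13 between distal and medial, against 0.01, and reversed no member. The replicate block gave 31, 28 and 23 called members (distal to proximal, distal to medial, then medial to proximal), where 32.6%, 29.1% and 9.73% of all genes tested were called. It gave 9 called pairs for copy balance, where 55.7% of all pairs were called. The deviations of same-numbered pools correlated at 0.03, 0.05 and 0.20 across all genes tested, in the same order of segments. Counting error in rare genes also lowers such a correlation, so it cannot decide whether same-numbered pools were paired. The 6 members without 10 counts in every library could not be tested under the strictest filter. Depth limits the rarest members most: fgf7.S, fgf11.S and fgf14.S had at most 10 counts in a distal library.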

Other observations

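The pools of a segment differed in a way that ran along the same gradient. In proximal tissue, 18 of the 19 members that were higher in distal than proximal had their higher level in pool 1, while 1 of the 12 members that were lower in distal did, against 49.7% of all genes tested. The median log2 ratio of pool 1 over pool 2 was 0.36 for the first of these sets and −0.15 for the second (0.1 CPM added to each level). In medial tissue pool 1 was the higher one for 15 of the 19 and 4 of the 12, against 52.4% of all genes. In distal tissue it was the higher one for 6 of the 19 and 10 of the 12, against 51.2%. The members share these libraries, so the counts describe the pools and carry no test. The same shares were not worked out for all genes called higher or lower in distal. The pool order therefore cannot be read as particular to FGF genes.

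In the authors' deposited table, 75 comparisons of members were listed, and all 75 were called here with the same sign in the same libraries. A further 5 were called here only. They were fgf2.L and fgf11.S between distal and medial, and fgf13.L, fgf14.S and dusp6.S between medial and proximal. None of these 5 was called when DESeq2 was used here (DESeq2 adjusted p = 0.0626 to 0.263).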
